A study of Homo sapiens with 14 samples.

Results

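NT2 cells after 10 days of retinoic acid (RA) were compared with untreated NT2 cells at day 0; day 10 is the middle of the 3 RA time points. The comparison uses 4 of the 14 RNA sequencing libraries, chosen by their labels: RA day 10 replicates 1 and 2, and untreated day 0 replicates 1 and 2. NT2 is a human embryonal carcinoma line, grown here in DMEM with fetal bovine serum. Per the labels' protocols, all-trans RA dissolved in DMSO was given at a final 10 µM, and medium was renewed throughout. The day 0 libraries carry the label No treatment, so the comparison combines RA, its DMSO solvent and the time in culture. DMSO cultures named in the protocol are not analysed here. The other 10 libraries (RA days 5 and 21, and BMP2 days 5, 10 and 21) entered the fit to estimate the spread between libraries. RA day 5 and RA day 21 were also set beside day 10. Whether both libraries of a group came from separate cultures is not stated, so every p-value measures only the spread between these samples, which may be technical.

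RA enters the nucleus and binds RA receptors, which sit on DNA as dimers with retinoid X receptors and switch from repressing to activating nearby genes. In embryonal carcinoma cells it shuts down the pluripotency programme, opens the HOX clusters and leads part of the culture toward neurons. Proneural transcription factors start neuron formation, and cytoskeletal genes such as NEFM (neurofilament medium chain), MAP2 (a microtubule protein of dendrites) and DCX (a microtubule protein of migrating young neurons) mark the cells that follow.

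Levels are given as CPM, counts scaled by library total and TMM factor, given for replicates 1 and 2 in that order. Changes are log2 fold changes ± SE from edgeR's quasi-likelihood test, with Benjamini-Hochberg adjusted p over 19142 genes, called at 0.05. Lists of genes are described by counts of members called. Over all genes tested, 12.9% were called higher and 11.1% lower, and each list is read beside these shares. Counts "without 1 library" are given for 4 fits, first leaving out the untreated replicate 1, then the untreated replicate 2, then replicate 1 of RA day 10, and last its replicate 2. A gene kept its call if it was called in all 4 of those fits. Folds against a group without counts are lower bounds against a floor of 3 counts over the group, which covers counting error only. Most low counts were even, so both mates of a read pair may have been counted. The floor would then stand for fewer than 3 fragments, and every "at least" fold would be too high as a lower bound. In bulk RNA, fewer cells of a type and less RNA per cell cannot be told apart. The counts may include intron reads, and genes whose span lies mostly inside other genes are marked as overlapping, because a neighbour's reads may add to their counts.

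The 4 libraries held 50475226 and 75754396 counts (untreated day 0) and 45773278 and 60913075 counts (RA day 10). Across the genes tested, log2 CPM of the untreated replicates correlated with r = 0.980 and that of the RA day 10 replicates with r = 0.964. Between replicate 2 of RA day 10 and replicate 1 of RA day 5 it was 0.968, higher than within RA day 10. These correlations are across genes, which are not independent replicates.

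Of 19142 genes tested, 4593 (24.0%) were called, 2476 (12.9%) higher and 2117 (11.1%) lower at RA day 10. Increases were larger than decreases. The median log2 fold change was 1.79 among the genes called higher and -0.96 among those called lower, against 0.06 over all genes tested. Changes of at least 4-fold numbered 1120 up and 366 down, and changes of at least 16-fold 471 up and 112 down. From under 0.1 CPM in both untreated libraries, 24 genes reached at least 5 CPM in both RA day 10 libraries, among them HOXA2, HOXB4, HOXC4, FOXA1 and MMRN1. In the opposite direction 1 gene did so. Without 1 library the calls numbered 2426, 1500, 1856 and 2913, and 1204 genes (6.29%) kept the call, 736 (3.84%) higher and 468 (2.44%) lower. The split depends on scaling. Library totals alone, an alternative chosen after seeing the data, gave 3403 higher and 1225 lower and moved the median of all genes by 0.22. On log2(RPKM + 1), limma gave 1987 and 1275 with a shift of 0.14, and on log2(RPKM + 0.1) 2219 and 1107 with a shift of 0.20. With RPKM divided by the TMM factors, also chosen after seeing the data, the splits were 1279 and 2132, and 1520 and 1975. A test for at least a 2-fold change called 686 higher and 215 lower.

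**Figure D1:**
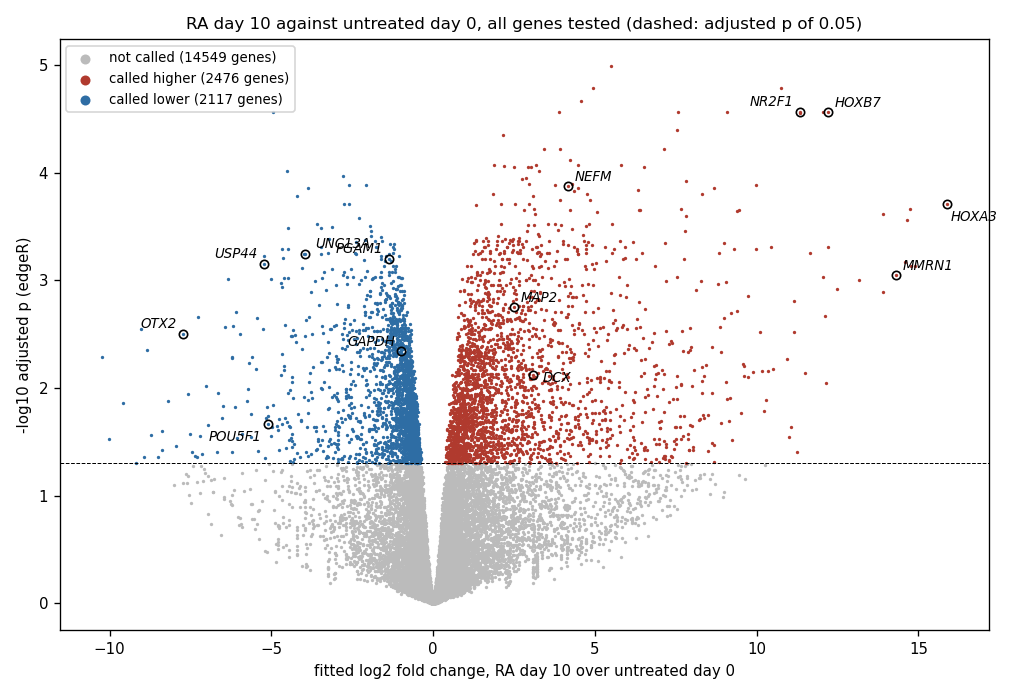
Each point is 1 of the 19142 genes tested, with the fitted log2 fold change of RA day 10 over untreated day 0 on the x axis and -log10 of edgeR's adjusted p on the y axis. Red points (2476) were called higher and blue points (2117) lower, and the red points reach farther from 0 than the blue ones. Fitted values of genes without counts at day 0, such as HOXA3, HOXB7 and MMRN1, depend on the prior count and are not fold estimates.

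Retinoid pathway genes had the highest share of members called higher after the HOX genes. Of 26 retinoid genes tested, 16 were called higher and 1 lower, against 12.9% and 11.1% over all genes. The median log2 fold change was 2.76. Without 1 library, 10, 9, 13 and 15 were called higher, and 9 kept the call. Among the receptors, RARB, itself a textbook RA target, went from 0.446 and 1.13 to 33.3 and 30.8 CPM (5.32 ± 0.59, adjusted p = 4.96e-04). RARA rose from 7.18 and 8.57 to 57.4 and 57.5 CPM (2.87 ± 0.23) and RXRB from 5.19 and 5.00 to 19.6 and 12.8 CPM (1.67 ± 0.25). Every RA day 10 library of these 3 receptor genes was above both untreated libraries.

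The enzymes that break down RA rose as well. CYP26A1 measured 8.66 and 19.3 CPM untreated and 255 and 259 CPM at RA day 10 (4.20 ± 0.79, adjusted p = 0.00525). CYP26B1, its paralog, measured 0.203 and 0.223 CPM untreated and 247 and 186 CPM at RA day 10 (9.97 ± 1.12, adjusted p = 5.10e-04). The orphan nuclear receptors NR2F1 and NR2F2 (COUP-TFI and COUP-TFII) went from near silence to high levels. NR2F1 had 0.122 and 0.0417 CPM untreated and 250.01 and 154 CPM at RA day 10 (11.34 ± 0.68), and NR2F2 had 0.284 and 0.390 CPM untreated and 177 and 108 CPM at RA day 10 (8.69 ± 0.73). In both genes RA day 10 replicate 1 was higher than replicate 2, and both libraries stood apart from day 0. The member called lower was ALDH1A3, which makes RA, at 7.24 and 11.8 CPM untreated and 0.171 and 0.194 CPM at RA day 10 (-5.68 ± 1.10); it lost its call without RA day 10 replicate 1.

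The promoters of RARB and CYP26A1 are shown because they hold the DR5 retinoic acid response element, the direct repeat with 5 bases between its copies to which the receptor dimer binds. They are RefSeq sequences on GRCh38.p14, from 250 bases before to 50 after the gene's start, written 5′ to 3′ along the gene, with the motif in capitals.
RARB promoter (chr3:25428013-25428312, plus strand): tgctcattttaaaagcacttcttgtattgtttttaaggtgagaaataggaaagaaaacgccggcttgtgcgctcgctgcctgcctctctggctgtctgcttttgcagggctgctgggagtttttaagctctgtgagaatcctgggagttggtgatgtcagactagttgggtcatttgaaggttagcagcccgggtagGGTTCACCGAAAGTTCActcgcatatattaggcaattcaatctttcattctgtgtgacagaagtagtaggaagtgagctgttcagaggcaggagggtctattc
CYP26A1 promoter (chr10:93073643-93073942, plus strand): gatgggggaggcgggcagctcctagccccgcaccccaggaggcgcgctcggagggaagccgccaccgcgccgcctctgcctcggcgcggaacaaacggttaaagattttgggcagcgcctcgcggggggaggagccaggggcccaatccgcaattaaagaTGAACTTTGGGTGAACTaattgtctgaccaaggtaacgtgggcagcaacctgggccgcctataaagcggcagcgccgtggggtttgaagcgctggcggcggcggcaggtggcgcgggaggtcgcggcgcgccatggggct
The RARB match ran from -53 to -37 from the start on the gene's strand, and the CYP26A1 match from -90 to -74 on the opposite strand. Both strands of 19538 promoters of 13528 tested genes were searched, and 15 promoters (0.0768%) held the DR5 element. Among promoters of genes called higher it stood in 3 of 2970 (0.101%), and among those of genes called lower in 1 of 2378 (0.0421%). The third promoter was that of FSCN2 (4.34 ± 0.61), a gene singled out by the match. The POU factor octamer ATGCAAAT stood in 1.45% of all promoters, 1.28% of those called higher and 1.60% of those called lower. The E-box CAGCTG, which basic helix-loop-helix factors bind, stood in 17.8%, 19.4% and 15.4%. Motifs were counted independently and may overlap. A match describes these letters only, and nothing here measures binding.

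HOX genes, which give cells their position along the body axis, held the largest increases by fitted log2 fold change. Fitted values of genes with 0 counts untreated depend on the prior count. Of 39 HOX genes tested, 28 were called higher and 0 lower, against 12.9% and 11.1% over all genes, and 22 kept the call. Without 1 library, 26, 22, 26 and 28 were called. The median log2 fold change was 9.09 as fitted and 7.53 with the genes lacking counts set at their lower bound. HOXA2, which lies largely outside other genes, had 0 counts in both untreated libraries and 54.5 and 63.3 CPM at RA day 10, at least 2380.1-fold higher (edgeR adjusted p = 2.16e-04). HOXB7, with 51.8% of its span overlapping, had 0 counts and then 9.44 and 10.8 CPM (at least 409-fold), and HOXC4 0 counts and then 12.1 and 6.91 CPM (at least 383-fold). The RA day 10 replicates were close to each other in HOXA2 and HOXB7.

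The overlapping HOX genes moved the same way. HOXA3 had 0 counts untreated and 126 and 135 CPM at RA day 10, at least 5255-fold higher. HOXB4, HOXB5 and HOXB8 reached 68.9 and 61.7, 59.5 and 59.8, and 59.0 and 50.3 CPM, again from 0 counts (at least 2637-fold, 2409-fold and 2207-fold). HOXA4 and HOXC5 reached 8.01 and 10.3 CPM (at least 369-fold) and 41.8 and 24.5 CPM (at least 1339-fold). The antisense transcripts HOXA-AS2, HOXA-AS3 and HOXB-AS3 lie in the same clusters, and since strand-specific counting is not stated, their reads cannot be told apart from those of the genes they face. They had 0 counts untreated and 55.1 and 50.4, 45.1 and 21.3, and 14.1 and 6.32 CPM at RA day 10.

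The HOX genes differed in their course over the RA series. HOXB1, at the front end of its cluster, had a higher mean at day 5 than at day 10, with 70.0, 46.8 and 0.632 CPM at RA days 5, 10 and 21. HOXC8, farther back and overlapping, had means of 0.602, 2.81 and 32.0 CPM. Both genes were chosen after their values were seen. HOXA10 separated the replicates, with 0 counts untreated and 10.0 and 0.432 CPM at RA day 10 (at least 211-fold for the mean). It was called higher in the fit of all libraries and in 1 of the 4 fits without 1 library.

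Of the 15 largest called increases by fitted log2 fold change, 12 were HOX genes or transcripts of HOX clusters. The other 3 were MMRN1, MEOX1 and C21orf62. Those given here had 0 counts untreated, so their fitted values depend on the prior count. Genes with counts at day 0, such as NR2F1 and CYP26B1, cannot be ranked against them by fitted values. MMRN1 encodes multimerin, a secreted protein best known from platelets and vessel lining. It had 0 counts in both untreated libraries and 39.8 and 47.2 CPM at RA day 10, at least 1756-fold higher. MEOX1, a homeobox factor of somites, had 0 counts and then 18.6 and 20.5 CPM, at least 789-fold higher. C21orf62, whose span overlaps another gene entirely, had 0 counts and then 15.2 and 9.36 CPM (at least 497-fold). The rule that named these 3 genes required both RA day 10 libraries to lie above the untreated ones.

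Pluripotency genes fell. Of 30 tested, 20 were called lower and 0 higher, against 11.1% lower over all genes, with a median log2 fold change of -2.94. Without 1 library, 12, 11, 9 and 10 were called lower, and 8 kept the call. POU5F1 (OCT4), the central pluripotency factor, had 1011 and 1006 CPM untreated and 36.2 and 22.8 CPM at RA day 10, a change of -5.10 ± 1.34 (adjusted p = 0.0218). The groups were far apart, but the call ended in each of the 4 fits without 1 library, with adjusted p of 0.0573, 0.0714, 0.115 and 0.121. NANOG had 220.0 and 279 CPM untreated and 13.9 and 8.41 CPM at RA day 10 (-4.49 ± 1.00, adjusted p = 0.0111), and was called in 1 of the 4 fits, that without untreated day 0 replicate 1 (0.0336), with 0.0554, 0.0683 and 0.0774 in the others.

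Other members kept the call. TDGF1, a NODAL co-receptor with most of its span overlapping, went from 337 and 371 to 16.5 and 11.2 CPM (-4.68 ± 0.63). GDF3, a growth factor of the same signalling family, went from 382 and 283 to 17.5 and 9.24 CPM (-4.64 ± 0.55), and the transcription factor gene FOXD3 from 12.4 and 11.7 to 0.171 and 0.209 CPM (-5.97 ± 0.95). ZSCAN10, PODXL, DPPA4, GAL and JARID2 also fell and kept the call, with log2 fold changes of -4.67 ± 0.87, -3.45 ± 0.38, -2.78 ± 0.22, -3.20 ± 0.33 and -1.86 ± 0.24. LIN28A, an RNA-binding protein that blocks let-7 maturation, did not pass, at 2536 and 3050.3 CPM untreated and 261 and 519 CPM at RA day 10 (-2.84 ± 1.35, adjusted p = 0.152); it was called with only the 4 libraries compared (0.00387) and without BMP2 day 10 replicate 1 (9.10e-04), replicate 2 (8.84e-04) or both (0.00100). SOX2, shared by pluripotent cells and neural progenitors and overlapping another gene, did not pass either, at 315 and 305 CPM untreated and 85.9 and 129 CPM at RA day 10 (-1.52 ± 0.62, adjusted p = 0.100). SOX2 was called lower by DESeq2 (0.0375), with only the 4 libraries compared (0.00614), and without BMP2 day 10 replicate 1 (0.00895), replicate 2 (0.00881) or both (0.0106).

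The largest called decreases lay mostly outside that list. OTX2, a factor of epiblast and forebrain, had 107 and 108 CPM untreated and 0.761 and 0.268 CPM at RA day 10 (-7.72 ± 1.30, adjusted p = 0.00317). USP44, a histone H2B deubiquitinase, had 393 and 404 CPM untreated and 7.29 and 13.9 CPM at RA day 10 (-5.23 ± 0.64, adjusted p = 7.13e-04). LINC-ROR, a long noncoding RNA of reprogrammed stem cells, had 31.6 and 26.5 CPM untreated and 0.495 and 0.283 CPM at RA day 10 (-6.22 ± 0.97). The rule that named the 15 largest decreases admits only genes whose libraries do not overlap between the groups. This held for 69.4% of all genes tested. The genes GGT8P, GLIPR1L1, CNMD, LINC00678, C13orf42, MYH2, FAM124B, TNFRSF8, HHLA1 and CALN1 were also among the 15, with log2 fold changes from -7.27 ± 1.12 for GGT8P to -5.24 ± 0.62 for CALN1. TNFRSF8 (CD30), a marker of embryonal carcinoma, went from 62.0 and 61.5 to 2.32 and 0.507 CPM. GLIPR1L1 and LINC00678 overlap other genes entirely.

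Neural progenitor and patterning factors were called in both directions, the lower calls at a share near that of all genes. Of 45 tested, 13 were called higher and 5 lower, against 12.9% and 11.1% over all genes. The median was 0.88, and only the 4 libraries compared gave 16 and 11. Without 1 library, 7, 7, 8 and 10 were called higher and 1, 1, 2 and 2 lower. The homeobox factor genes MEIS1 and MEIS2, partners of HOX proteins, rose and kept the call. MEIS1 had 0.284 and 0.584 CPM untreated and 163 and 121 CPM at RA day 10 (8.31 ± 0.72), and MEIS2 1.83 and 3.63 CPM untreated and 259 and 244 CPM at RA day 10 (6.52 ± 0.50). ZIC1, a dorsal neural factor, had 1.18 and 0.264 CPM and then 29.3 and 79.5 CPM (6.27 ± 0.75), and ZIC4, mostly overlapping, 0.122 and 0.139 CPM untreated and 7.56 and 23.2 CPM at RA day 10 (6.85 ± 0.84). In both ZIC genes RA day 10 replicate 2 was over 2-fold above replicate 1, and both replicates were above day 0.

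PAX6, which marks neural progenitors, rose from 2.49 and 3.16 to 36.2 and 50.2 CPM (3.93 ± 0.65, adjusted p = 0.00288). POU3F2 (BRN2), a neuronal POU factor, rose from 1.5 and 2.28 to 20.1 and 39.5 CPM (3.97 ± 0.73, adjusted p = 0.00466). EN1, a midbrain and hindbrain factor, rose from 0.0406 and 0.306 to 4.23 and 2.94 CPM (4.27 ± 0.78). All 3 kept the call. SOX1, an early neural plate marker, did not pass, at 0.243 and 0.0278 CPM untreated and 0.952 and 0.70 CPM at RA day 10 (2.63 ± 1.28, adjusted p = 0.173). Of the 5 members called lower (OTX2, POU3F1, LHX2, SIX3 and OLIG2), OTX2 alone kept the call. OTX2, LHX2 and SIX3 are factors of the forebrain.

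Among proneural factors and neuronal RNA-binding proteins, 14 were split between the RA day 10 replicates. Of 24 tested, 7 were called higher and 1 lower (RBFOX3), against 12.9% and 11.1% over all genes, with a median of 0.91. Without 1 library, 4, 2, 3 and 4 were called higher and 0 lower in each. ST18, a zinc-finger factor of the MYT1 family, had 0 and 0.0557 CPM untreated and 1.01 and 6.83 CPM at RA day 10 (6.89 ± 1.34, adjusted p = 0.00736). It kept the call, with the RA day 10 libraries 6.77-fold apart and both above day 0.

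The 2 RA day 10 libraries differed in this list in one direction. Of its 22 members with at least 1 CPM in either RA day 10 library, 14 were at least 2-fold higher in replicate 2 and 0 in replicate 1, with a median log2 ratio of replicate 2 over replicate 1 of 1.22. Over all genes tested, 604 of 14625 (4.13%) were at least 2-fold higher in replicate 2 and 808 (5.52%) in replicate 1. This pattern was noticed after the values were seen and was not tested. ELAVL3, a neuronal RNA-binding protein, had 4.68 and 2.57 CPM untreated and 0.914 and 10.3 CPM at RA day 10 (0.64 ± 1.08, adjusted p = 0.704). ELAVL4 (HuD), its relative, had 2.13 and 2.41 CPM untreated and 2.11 and 20.4 CPM at RA day 10 (2.31 ± 1.24, adjusted p = 0.198). In both, RA day 10 replicate 1 lay below the untreated libraries and replicate 2 above them.

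Proneural factors of the neurogenin and NEUROD families were split in the same way and did not pass the test, though with only the 4 libraries compared NEUROG2 (0.0157) and NEUROD1 (0.0204) did. NEUROD1 also passed with no filter on low counts (0.0467). NEUROG2 had 0.0811 and 0.0278 CPM untreated and 0.761 and 3.37 CPM at RA day 10 (5.25 ± 2.18, adjusted p = 0.126), and NEUROD4 had 0.122 and 0.0278 CPM untreated and 0.267 and 1.76 CPM at RA day 10 (3.77 ± 1.53, adjusted p = 0.129). NEUROD1, overlapping, had 0 counts and then 0.343 and 1.85 CPM (at least 44.2-fold for the mean, adjusted p = 0.0928). INSM1, MYT1, MYT1L, SRRM4, NHLH1, NHLH2, CELF3 and CELF4 complete the 14, and of these MYT1L and CELF3 were called higher. Replicate 2 was not always above day 0. INSM1, a factor of newborn neurons, had 4.46 and 10.4 CPM untreated and 0.723 and 4.23 CPM at RA day 10.

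**Figure D2:**
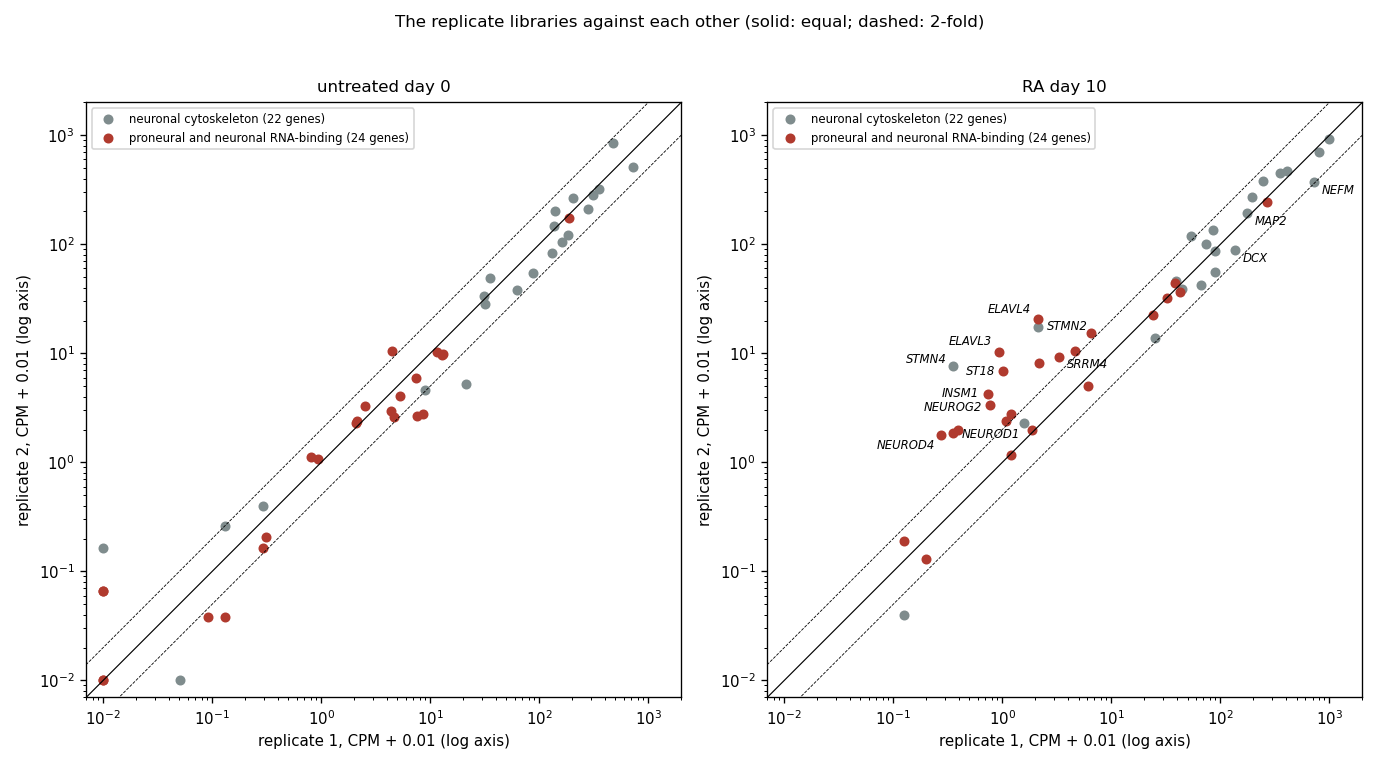
Replicate 2 against replicate 1 for untreated day 0 (left) and RA day 10 (right), as CPM + 0.01 on log axes. Each point is a gene of the neuronal cytoskeleton list (grey) or of the proneural and neuronal RNA-binding list (red), the solid line marks equal levels and the dashed lines a 2-fold difference. At RA day 10, 14 red points lie at or above the upper dashed line and 0 at or below the lower one among genes with at least 1 CPM in either library.

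Neuronal cytoskeleton genes rose in part. Of 22 tested, 9 were called higher and 3 lower, against 12.9% and 11.1% over all genes, and the median log2 fold change was 0.02. With library totals alone 9 were called higher and 1 lower. Without 1 library, 6, 4, 8 and 6 were called higher and 3, 0, 0 and 1 lower. The genes that kept the call were NEFM, MAP2, DCX and TUBA1A. NEFL and TUBB3 are not analysed here.

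NEFM (ENSG00000104722) had 32.0 and 28.4 CPM in the untreated libraries, 119.8 and 146 CPM at RA day 5, 718 and 369 CPM at RA day 10 and 358 and 359 CPM at RA day 21. All RA libraries lay above the untreated ones, and RA day 10 replicate 1 was the highest. The change at day 10 was 4.17 ± 0.35 (adjusted p = 1.34e-04). MAP2 (ENSG00000078018) had 30.9 and 33.4 CPM untreated, 59.0 and 84.7 CPM at RA day 5, 174 and 192 CPM at RA day 10 and 133 and 171 CPM at RA day 21. Its RA day 10 libraries were close to each other and well above day 0 (2.51 ± 0.37, adjusted p = 0.00177).

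DCX (ENSG00000077279) had 21.1 and 5.26 CPM untreated, 23.7 and 32.1 CPM at RA day 5, 135 and 88.9 CPM at RA day 10 and 6.54 and 4.61 CPM at RA day 21. The RA day 10 libraries were above all others, and RA day 21 lay within or below the untreated range. The untreated replicates of DCX differed 4-fold, and the change at day 10 was 3.09 ± 0.63 (adjusted p = 0.00759). TUBA1A, the tubulin of growing neurites, went from 283 and 209 to 997 and 918 CPM (1.96 ± 0.21, adjusted p = 4.66e-04). So the 3 markers of neurons given for these cells were each higher at RA day 10 in both libraries.

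Other cytoskeletal genes were called higher without keeping the call, were called lower or did not pass. STMN2, which growing axons need, had 0.122 and 0.250 CPM untreated and 2.13 and 17.6 CPM at RA day 10 (5.68 ± 1.67, adjusted p = 0.0340), with the higher value in replicate 2. It was called in 1 of the 4 fits, that without RA day 10 replicate 1 (adjusted p = 0.0411), and had 0.158 to 0.173 in the others. STMN4 had 0.0406 and 0 CPM untreated and 0.343 and 7.6 CPM at RA day 10 and also came mainly from replicate 2. INA, another neuronal intermediate filament, was lower, at 139.7 and 203 CPM untreated and 73.8 and 99.6 CPM at RA day 10 (-0.98 ± 0.29, adjusted p = 0.0360), a call that held in 1 of the 4 fits, that without untreated day 0 replicate 1 (0.0452). GAP43, of growth cones, had 62.5 and 37.7 CPM untreated and 38.9 and 46.5 CPM at RA day 10 and did not pass (-0.23 ± 0.46, adjusted p = 0.749).

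**Figure D3:**
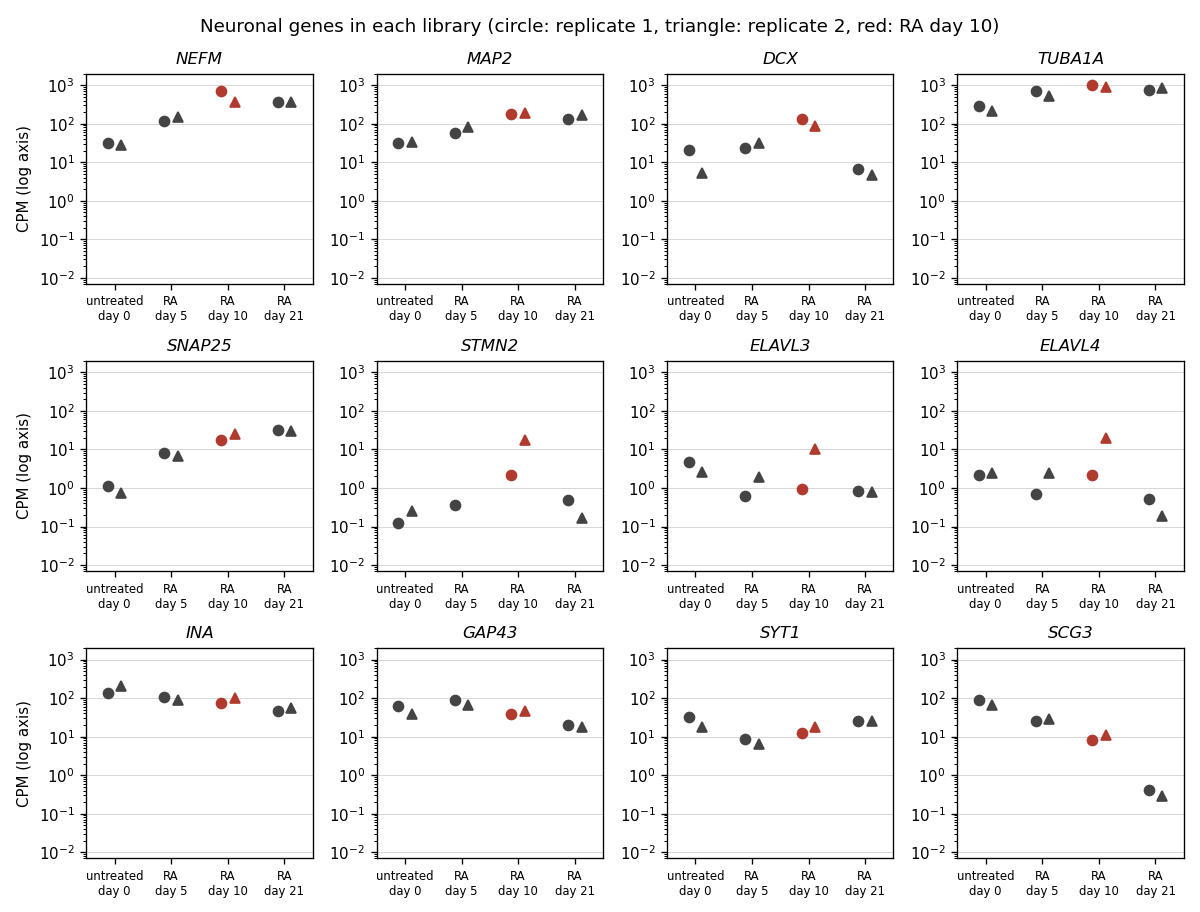
CPM (log axis) of 12 neuronal genes in each library of untreated day 0 and RA days 5, 10 and 21, with circles for replicate 1, triangles for replicate 2 and RA day 10 in red. NEFM, MAP2, DCX, TUBA1A and SNAP25 have both RA day 10 libraries above both untreated ones. STMN2, ELAVL3 and ELAVL4 are split between the RA day 10 replicates, and INA and SCG3 have both RA day 10 libraries below the untreated ones.

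Genes of synaptic vesicles and secretory granules were called at shares near those of all genes (12.9% higher and 11.1% lower). Of 32 tested, 5 were called higher and 3 lower, with a median of 0.15; DESeq2 gave 9 and 4, and only the 4 libraries compared 7 and 7. Without 1 library, 5, 3, 5 and 5 were called higher and 1 lower in each. SNAP25, a core of the vesicle fusion machinery that overlaps another gene entirely, had 1.10 and 0.751 CPM untreated and 17.1 and 25.1 CPM at RA day 10 (4.52 ± 0.72, adjusted p = 0.00256). SYT11, a synaptotagmin, rose from 33.4 and 18.5 to 160.0 and 199 CPM (2.79 ± 0.31) and CPE, a peptide-processing enzyme, from 29.4 and 38.2 to 117 and 125 CPM (1.84 ± 0.29). UNC13A, which primes vesicles for release, fell from 229 and 153 to 10.7 and 13.8 CPM (-3.96 ± 0.46, adjusted p = 5.73e-04). These 4 kept the call. None of their libraries overlapped between groups, which held for 69.4% of all genes tested.

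SCG3, a granule protein, had 89.8 and 67.4 CPM untreated and 8.0 and 11 CPM at RA day 10 (-3.05 ± 0.89, adjusted p = 0.0326). Its call ended in each of the 4 fits without 1 library (adjusted p from 0.0890 to 0.181). SYP and SYT1, markers of mature synapses, did not pass: SYP had 14.2 and 7.75 CPM untreated and 4.74 and 6.77 CPM at RA day 10 (-0.93 ± 0.40, adjusted p = 0.116), and SYT1 31.7 and 17.8 CPM untreated and 12.7 and 17.6 CPM at RA day 10 (-0.71 ± 0.57, adjusted p = 0.399).

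Ion channel genes were called in both directions, as were all genes. Of 36 voltage-gated channel genes, 7 were called higher and 6 lower, against 12.9% and 11.1% over all genes (median -0.12). With library totals alone these were 8 and 1 with a median of 0.11, and without 1 library 5, 3, 5 and 4 higher and 1, 2, 0 and 1 lower. The calcium channel genes CACNA1D and CACNA1C rose, from 1.66 and 1.04 to 38.4 and 36.0 CPM (4.79 ± 0.51) and from 8.11 and 5.16 to 23.8 and 32.7 CPM (2.09 ± 0.35). SCN3B, a sodium channel subunit, rose from 2.60 and 1.92 to 15.2 and 19.9 CPM (2.96 ± 0.38). The RA day 10 replicates of each were closer to each other than to day 0.

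Of 33 transmitter receptor genes, 8 were called higher and 5 lower (median 0.53), against 12.9% and 11.1% over all genes. Without 1 library, 6, 2, 5 and 7 were higher and 1, 3, 1 and 2 lower. GRIA2, the AMPA receptor subunit that limits calcium entry, had 0 counts untreated and 1.88 and 1.42 CPM at RA day 10, at least 66.7-fold higher. CHRNA3, a nicotinic subunit of autonomic neurons, rose from 4.81 and 4.75 to 35.0 and 16.0 CPM (2.42 ± 0.42). Both kept the call.

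Among 29 neuron subtype factors and transmitter genes, 6 were called higher and 0 lower, and 0 kept the call; without 1 library 1, 0, 3 and 6 were called higher. The 6 were ISL1, EBF1 and GATA3, which specify neuron types, and CHAT, SLC18A3 and SLC5A7, which make acetylcholine, load it into vesicles and take up choline. They were named after their values were seen, and 12.9% of all genes tested were called higher. CHAT had 0 counts untreated and 0.723 and 0.626 CPM at RA day 10, at least 27.2-fold higher (adjusted p = 0.0111). SLC18A3, which lies inside CHAT's span and cannot be separated from it here, had 0.0811 and 0.0278 CPM untreated and 7.58 and 11.7 CPM at RA day 10 (7.50 ± 1.63). SLC5A7 split the replicates, with 0.406 and 0.362 CPM untreated and 20.5 and 1.48 CPM at RA day 10 (4.83 ± 1.57, adjusted p = 0.0489).

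Axon guidance and neural adhesion genes rose in part. Of 50 tested, 20 were called higher and 3 lower (median 1.30), against 12.9% and 11.1% over all genes. Of these, 8 kept a higher call. Without 1 library, 13, 10, 17 and 15 were called higher and 2 lower in each. SEMA3C, a secreted guidance cue, had 0.973 and 3.03 CPM untreated and 161 and 198 CPM at RA day 10 (6.47 ± 0.75), and SEMA3D, a related cue, 3.93 and 4.76 CPM untreated and 36.4 and 91.7 CPM at RA day 10 (3.88 ± 0.52). PLXNA2, a semaphorin receptor, had 10.1 and 20.7 CPM untreated and 459 and 554 CPM at RA day 10 (5.03 ± 0.61), and its co-receptor NRP1 7.83 and 8.22 CPM untreated and 68.4 and 63.2 CPM at RA day 10 (3.04 ± 0.45). In all 4 the groups did not overlap, which held for 69.4% of all genes tested.

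NCAM1, the neural cell adhesion molecule, rose from 15.7 and 8.36 to 102 and 74.3 CPM (2.88 ± 0.38, adjusted p = 0.00100). EPHB2 and its ligand gene EFNB2 rose too, by 2.39 ± 0.32 and 2.36 ± 0.28, and SLIT3, a repellent cue, by 1.95 ± 0.38. DSCAM, an adhesion molecule of neurons, fell from 12.9 and 11.4 to 1.29 and 1.49 CPM (-3.12 ± 0.39), and the netrin receptor gene UNC5D from 28.9 and 16.1 to 4.95 and 5.44 CPM (-2.11 ± 0.32). The 3 members called lower were these and SEMA6A.

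The Notch pathway, through which neighbouring progenitors hold each other back from becoming neurons, had 6 of 20 genes called higher and 1 lower (median 0.95); without 1 library 3, 2, 3 and 3 were higher. Over all genes, 12.9% were called higher and 11.1% lower. HES1 and HES4, targets of Notch, rose from 19.3 and 24.7 to 63.1 and 62.2 CPM (1.51 ± 0.22) and from 0.994 and 0.835 to 8.30 and 10.3 CPM (3.34 ± 0.37), and kept the call. DLL3, a ligand, had 0.852 and 1.03 CPM untreated and 3.67 and 3.84 CPM at RA day 10 (1.99 ± 0.60, adjusted p = 0.0372) and lost its call without any 1 of the 4 libraries (adjusted p from 0.103 to 0.169). DLL1, mostly overlapping, had 5.11 and 4.06 CPM untreated and 4.05 and 7.73 CPM at RA day 10 and did not pass (0.36 ± 0.86, adjusted p = 0.790). HES5 stayed at or near 0, at 0 and 0.0557 CPM untreated and 0 and 0.358 CPM at RA day 10.

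Of 51 WNT and FGF genes, 18 were called higher and 10 lower (median 0.86); without 1 library 8, 5, 7 and 10 were higher and 7, 3, 8 and 3 lower. The ligand genes FGF9, WNT4 and RSPO3 rose: FGF9 from 0.365 and 0.417 to 10.7 and 13.2 CPM (4.92 ± 0.60), WNT4 from 0.487 and 0.362 to 6.03 and 20.2 CPM (4.95 ± 0.66) and RSPO3 from 0 and 0.195 to 7.10 and 6.47 CPM (5.97 ± 0.84). FGF18 rose by 2.72 ± 0.53. FGF2, which maintains pluripotent cultures, fell from 107 and 111 to 19.4 and 31.6 CPM (-2.09 ± 0.34), with SPRY4, a feedback inhibitor of FGF signals (-1.99 ± 0.31), and FZD5, a WNT receptor (-2.46 ± 0.32). These 7 kept the call. Among all genes tested, 12.9% were called higher and 11.1% lower.

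In the BMP and TGF-beta list, 11 of 32 were called higher and 1 lower (median 0.87); without 1 library 2, 4, 6 and 8 were higher and 0 lower. The shares over all genes were 12.9% higher and 11.1% lower. TGFB2, a ligand, rose from 0.284 and 0.779 to 86.8 and 97.4 CPM (7.38 ± 1.30) and MSX1, a BMP target and homeobox factor, from 0.284 and 0.348 to 17.8 and 40.1 CPM (6.50 ± 1.11).

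Cell cycle genes were called lower at day 10 at a share near that of all genes, and the number depended on the fit. Of 37 proliferation genes, 5 were called lower (CCNE1, AURKA, MCM4, CDC6 and PCNA) and 0 higher. Over all genes, 11.1% were called lower and 12.9% higher. The median log2 fold change of the list was -0.58. The groups did not overlap in 34 of the 37, against 69.4% of all genes, and the summed level was 8824 to 9190 CPM untreated and 5119 to 6450 CPM at RA day 10. Only the 4 libraries compared gave 21 called lower and 1 higher, the fit without both BMP2 day 10 libraries 11 lower and DESeq2 8 lower. With library totals alone 2 were called lower, and without 1 library 2, 1, 1 and 3. CCNE1, a cyclin of the G1 to S transition, fell from 50.8 and 55.4 to 18.0 and 21.2 CPM (-1.44 ± 0.26, adjusted p = 0.00411) and kept the call. MKI67, a marker of dividing cells, had 616 and 486 CPM untreated and 302 and 516 CPM at RA day 10 and did not pass (-0.43 ± 0.38, adjusted p = 0.434). Its RA day 10 replicate 2 lay between the untreated libraries and replicate 1 below them.

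Of 16 cyclin-dependent kinase inhibitors, D cyclins and related genes, 7 were called higher and 0 lower (median 0.95). Over all genes, 12.9% were called higher and 11.1% lower. Only the 4 libraries compared gave 12 higher, and without 1 library 3, 2, 2 and 4 were higher. CDKN2C (p18) and CDKN2D (p19) rose from 0.122 and 0.139 to 1.94 and 1.98 CPM (3.88 ± 0.56) and from 2.21 and 2.67 to 9.75 and 11.8 CPM (2.14 ± 0.37) and kept the call. CDKN1C (p57) had 20.1 and 15.3 CPM untreated and 124 and 88.7 CPM at RA day 10 (2.59 ± 0.56, adjusted p = 0.00927) and lost its call without untreated day 0 replicate 2 (0.0869) or RA day 10 replicate 1 (0.0518). CDKN1A (p21) had 7.46 and 10.1 CPM untreated and 57.2 and 43.1 CPM at RA day 10 and did not pass (2.51 ± 1.13, adjusted p = 0.132). CDKN1A was called higher with only the 4 libraries compared (0.00226) and without BMP2 day 10 replicate 1 (0.00139), replicate 2 (0.00135) or both (0.00136).

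Glycolysis genes were lower. Of 20 tested, 12 were called lower and 1 higher (ENO3), against 11.1% and 12.9% over all genes. The median was -0.91. Without 1 library, 9, 6, 6 and 8 were lower, and 6 kept the call. GAPDH went from 5462 and 5214 to 2825 and 2599 CPM (-0.98 ± 0.18, adjusted p = 0.00457) and PGAM1 from 442 and 416 to 159 and 177 CPM (-1.35 ± 0.16, adjusted p = 6.40e-04). HK1, the first enzyme of the pathway, went from 375 and 332 to 112 and 101 CPM (-1.74 ± 0.29). ALDOC, the aldolase of brain, fell by 2.37 ± 0.42, TPI1 by 0.78 ± 0.14 and PGK1, which overlaps other genes, by 0.88 ± 0.15. With library totals alone 11 of the 20 were called lower and 2 higher.

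Nucleotide excision repair, the subject of the series, removes bulky lesions from DNA. Of 43 of its genes tested, 2 were called higher and 6 lower, against 12.9% and 11.1% over all genes (median -0.26), and 0 kept either call. Only the 4 libraries compared gave 4 higher and 14 lower, the fit without both BMP2 day 10 libraries 7 and 13, and DESeq2 4 and 11. The direction depended on scaling: with library totals alone 6 were called higher and 2 lower. Without 1 library, 0, 0, 0 and 1 were called higher and 2, 0, 1 and 0 lower. XPC, which recognises lesions, had 54.6 and 59.0 CPM untreated and 82.5 and 72.8 CPM at RA day 10 and missed the threshold narrowly (0.45 ± 0.15, adjusted p = 0.0501); DESeq2 gave an adjusted p of 0.0262 and edgeR with library totals alone 0.0122. DDB2, of the ultraviolet damage sensor, had 16.5 and 15.9 CPM untreated and 18.2 and 16.7 CPM at RA day 10 (0.11 ± 0.53, adjusted p = 0.904).

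In the list of BAF chromatin remodelling subunits and REST partners, 4 of 18 were called higher and 2 lower, with a median of -0.00 (0.22 with library totals alone); without 1 library 2, 1, 2 and 4 were higher and 2, 1, 1 and 1 lower. REST, which represses neuronal genes outside neurons, had 117 and 148 CPM untreated and 94.9 and 90.5 CPM at RA day 10 (-0.52 ± 0.16, adjusted p = 0.0374), a call that held in 1 of the 4 fits, that without untreated day 0 replicate 1 (0.0395). PHF10, a BAF subunit of progenitors, rose from 55.1 and 56.7 to 94.7 and 106 CPM (0.85 ± 0.16). BCL11A, a zinc-finger subunit, fell from 44.2 and 44.0 to 13.1 and 10.4 CPM (-1.91 ± 0.20). The last 2 kept the call. Among all genes, 12.9% were called higher and 11.1% lower. Of 17 immediate early and stress genes, 4 were called higher and 1 lower (median 0.84), and without 1 library 3, 2, 2 and 2 higher and 0, 1, 0 and 1 lower. Both members named here kept the call, with JUN rising from 43.1 and 41.5 to 155 and 117 CPM (1.69 ± 0.24) and JUNB, overlapping, from 1.05 and 1.66 to 15.7 and 10.8 CPM (3.28 ± 0.38).

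**Figure D4:**
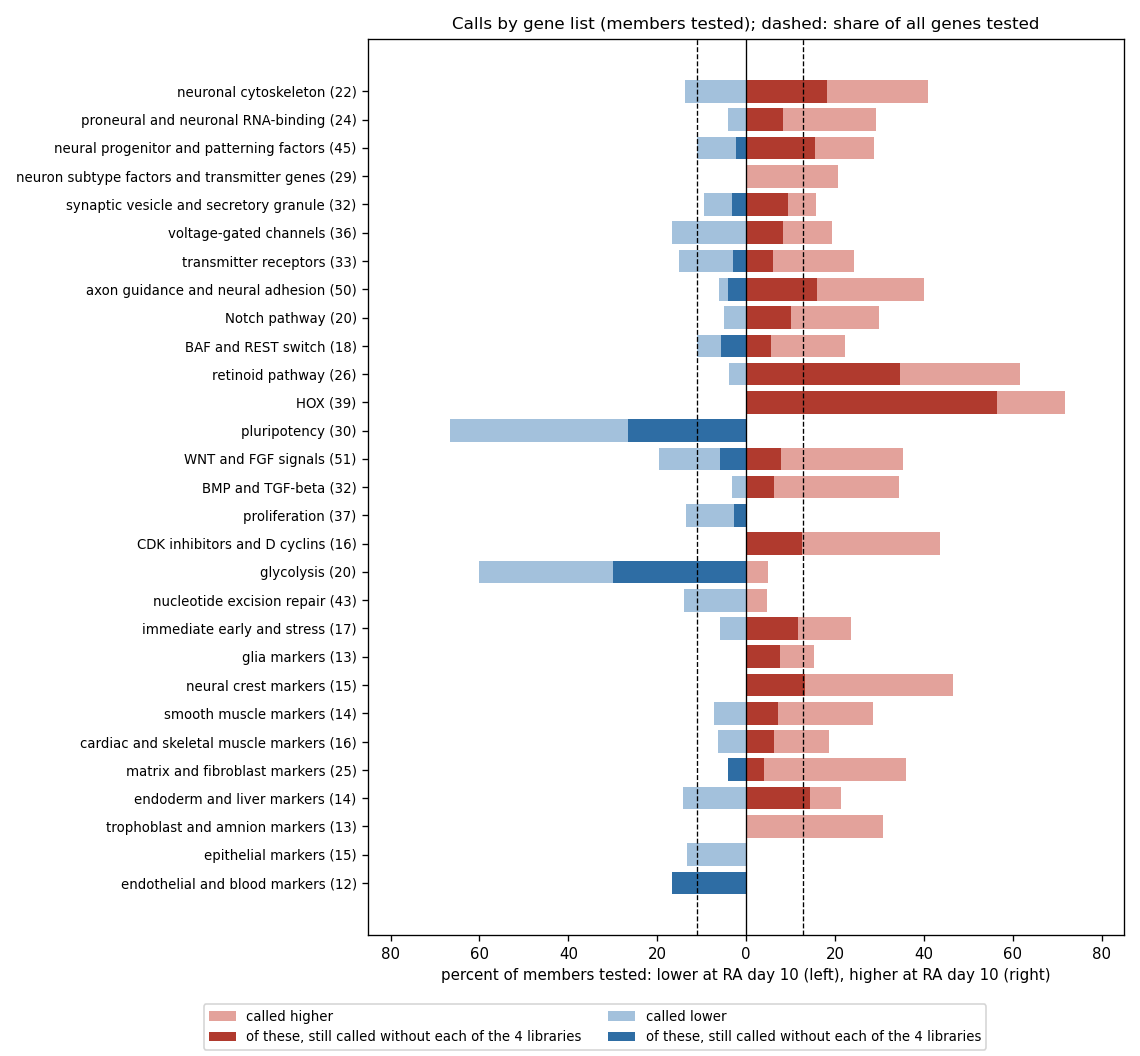
Percent of tested members of each gene list (number in brackets) called higher (right, red) or lower (left, blue) at RA day 10, with the darker part still called without each of the 4 libraries in turn. Dashed lines mark the 12.9% of all genes called higher and the 11.1% called lower. HOX and retinoid genes reach farthest right, and pluripotency and glycolysis genes farthest left.

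Markers of other cell types were measured beside the neuronal genes, and their part in the results above was not tested. Over all genes tested, 12.9% were called higher and 11.1% lower, and some of the counts below lie near these shares. Of 13 glia markers, 2 were called higher (SLC1A3 and PDGFRA) and 0 lower (1, 1, 2 and 1 higher without 1 library), with a summed level of 122 to 152 CPM untreated and 177 to 226 CPM at RA day 10. GFAP, which defines astrocytes, had 0.365 and 0.0974 CPM untreated and 0.0381 and 0.104 CPM at RA day 10, and SOX10, overlapping, 0.406 and 0.111 CPM untreated and 0.0761 and 0.0596 CPM at RA day 10. PDGFRA, also of mesenchymal cells, rose from 12.7 and 11.9 to 126 and 63.8 CPM (2.95 ± 0.51). Of 15 neural crest markers, 7 were called higher and 0 lower (summed 145 to 159 CPM untreated, 222 to 332 CPM at RA day 10); without 1 library 2, 3, 4 and 7 were higher. PRRX1, of mesenchyme, rose from 0.568 and 0.724 to 106 and 43.7 CPM (6.84 ± 1.15) and FOXC1 from 1.83 and 1.16 to 14.7 and 7.42 CPM (2.89 ± 0.42).

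Matrix and fibroblast markers had 9 of 25 called higher and 1 lower (summed 1616 to 1952 CPM untreated, 4756 to 5073 CPM at RA day 10); only the 4 libraries compared gave 14 higher, and without 1 library 5, 1, 7 and 8 were higher. COL2A1, the collagen of cartilage and notochord, rose from 3.45 and 1.67 to 569.9 and 577 CPM (7.82 ± 0.74) and kept the call. COL3A1, a fibroblast collagen, had 2.92 and 0.334 CPM untreated and 1389 and 316 CPM at RA day 10 (9.07 ± 1.92, adjusted p = 0.00874). Its RA day 10 replicate 1 was over 4-fold above replicate 2, and the call ended without untreated day 0 replicate 2 (0.0750). THY1, overlapping, fell from 227 and 218 to 20.7 and 24.2 CPM (-3.31 ± 0.45).

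Of 14 smooth muscle markers, 4 were called higher and 1 lower (summed 829 to 1282 CPM untreated, 1251 to 2391 CPM at RA day 10); without 1 library 1, 1, 2 and 2 were higher. LMOD1, a smooth muscle leiomodin, rose from 0.122 and 0.0278 to 38.6 and 25.1 CPM (8.82 ± 1.02), while ACTA2, overlapping, had 0.750 and 1.00 CPM untreated and 5.81 and 5.50 CPM at RA day 10 (2.68 ± 0.78, adjusted p = 0.0325) and lost its call without any 1 of the 4 libraries (0.0755 to 0.157). Of 16 cardiac and skeletal muscle markers, 3 were called higher and 1 lower (summed 73.9 to 131 CPM untreated, 131 to 166 CPM at RA day 10); without 1 library 1, 1, 1 and 3 were higher and 1, 1, 0 and 1 lower. MEF2C, also a factor of neurons, rose from 0.872 and 1.31 to 32.8 and 22.4 CPM (4.65 ± 0.49).

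Of 14 endoderm and liver markers, 3 were called higher and 2 lower (summed 18.0 to 18.7 CPM untreated, 58.1 to 81 CPM at RA day 10); without 1 library 2, 2, 2 and 3 were higher and 2, 2, 0 and 1 lower. FOXA1 rose from 0.0406 and 0.0557 to 31.3 and 20.5 CPM (8.98 ± 0.88) and GATA6 from 0.548 and 0.264 to 33.2 and 15.1 CPM (5.92 ± 0.66), while AFP, which defines fetal liver and yolk sac, was at 0 and 0.0557 CPM untreated and 0 and 0.0596 CPM at RA day 10. Trophoblast and amnion markers had 4 of 13 called higher and 0 lower, and 0 kept the call; without 1 library 0, 1, 1 and 3 were higher. Their summed level was 51.2 to 64.4 CPM untreated and 98.3 to 102 CPM at RA day 10. Epithelial markers had 0 of 15 called higher and 2 lower (ESRP1 and ESRP2; summed 2028 to 2319 CPM untreated, 1388 to 2627 CPM at RA day 10), and their calls numbered 1, 0, 0 and 1 without 1 library. Endothelial and blood markers had 0 of 12 called higher and 2 lower (summed 172 to 217 CPM untreated, 89.7 to 130 CPM at RA day 10). These 2 were the VEGF receptor genes FLT1, from 52.5 and 53.6 to 2.78 and 2.47 CPM (-4.34 ± 0.72), and KDR, from 62.4 and 27.6 to 5.75 and 2.61 CPM (-3.43 ± 0.55), and both kept the call.

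RA day 10 was then set beside the RA days before and after it. These comparisons share the RA day 10 libraries with the first, so each is given by its own values. Against RA day 5, edgeR called 0 genes, with 2629 at an unadjusted p under 0.05. DESeq2 called 450 higher and 277 lower, and limma called 62 and 27 on log2(RPKM + 1) and 0 on log2(RPKM + 0.1). The edgeR count was 143 higher and 95 lower without both BMP2 day 10 libraries, which stand apart from each other (r = 0.918), 135 and 97 without BMP2 day 10 replicate 1, and 132 and 98 without replicate 2. It was 8 without RA day 10 replicate 2, 1 without RA day 5 replicate 1 and 75 with no filter on low counts. The first comparison had 3596 higher and 2831 lower calls without both. The mean of RA day 5 lay between those of day 0 and day 10 for 2075 of the 2476 genes called higher and 1971 of the 2117 called lower, which describes the order of the means and is no test.

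Against RA day 10, RA day 21 had 1883 genes called (9.84%), 856 higher (4.47%) and 1027 lower (5.37%). Without RA day 10 replicate 1 or 2 the calls numbered 594 and 96, and without RA day 21 replicate 1 or 2 they numbered 24 and 21. Leaving out libraries outside the comparison moved the count as well, to 1081 and 1087 without untreated day 0 replicate 1 or 2, and to 3983 and 3984 without BMP2 day 10 replicate 1 or 2. Of the genes named here 31 were called, and 0 of these kept the call without either RA day 21 library. Several genes that rose by day 10 were low at day 21. DCX had a mean of 5.58 CPM at RA day 21 (-4.33 ± 0.67 against RA day 10, adjusted p = 0.0118, 0.0328 to 0.135 without 1 library). POU3F2 had a mean of 2.41 CPM (-3.63 ± 0.72, adjusted p = 0.0204, 0.0370 to 0.175).

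MMRN1 fell from a mean of 43.5 CPM at RA day 10 to 0.0419 CPM at RA day 21 (-9.93 ± 1.26, adjusted p = 0.00777, 0.0218 to 0.107 without 1 library), and MEOX1 from 19.5 to 1.48 CPM (-3.72 ± 0.87, adjusted p = 0.0331, 0.0710 to 0.218). CHRNA3 fell to 5.94 CPM (-2.10 ± 0.42, adjusted p = 0.0209, 0.0436 to 0.162). NEFM and MAP2 did not pass in this comparison, with means of 359 and 152 CPM at RA day 21 (-0.60 ± 0.31 and -0.26 ± 0.35, adjusted p = 0.228 and 0.665). POU5F1 fell further, to 0.402 CPM (-6.20 ± 1.48, adjusted p = 0.0321, 0.0722 to 0.221). Most calls of this comparison ended with 1 RA day 21 library left out, and the list counts that follow carry that limit. Of the 30 pluripotency genes 16 were called lower from day 10 to day 21, and of the 37 proliferation genes 20, against 5.37% of all genes. MKI67 was among the latter, with a mean of 142 CPM at RA day 21 (-1.53 ± 0.38, adjusted p = 0.0368, 0.0488 to 0.228).

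**Figure D5:**
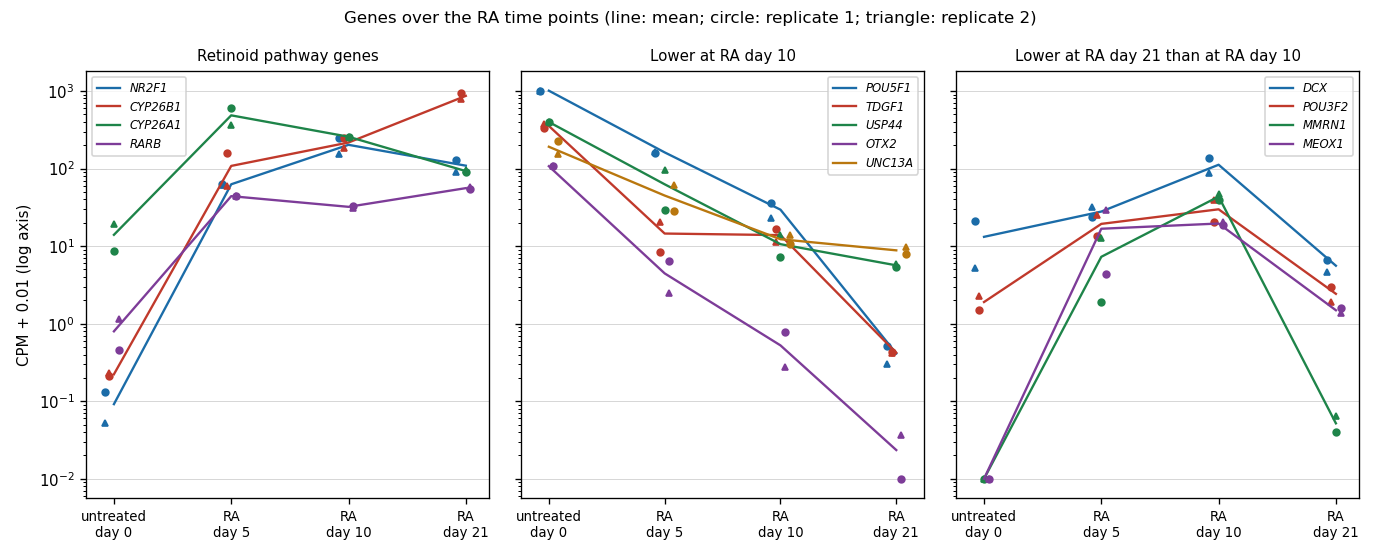
CPM + 0.01 (log axis) of 13 genes at untreated day 0 and RA days 5, 10 and 21, with lines through the means, circles for replicate 1 and triangles for replicate 2. The retinoid genes (left) are at or above 30 CPM in every RA day 10 library, the genes in the middle panel fall from day 0 to day 10, and those on the right have their highest mean at RA day 10.

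Among genes called at RA day 10 with counts in both of its libraries, the widest gaps between its replicates were described by the 10 largest ratios. Called genes without counts in 1 of these libraries have no ratio and were not ranked. A2M, ELSPBP1, EMCN, FGF10, GBP5, HAND2, HOXA10, ODF3B and SLC5A7 were higher in replicate 1, and STMN4 in replicate 2. HAND2, a factor of heart and sympathetic neurons that is mostly overlapping, had 0.203 and 0.250 CPM untreated and 16.2 and 0.238 CPM at RA day 10, where replicate 2 lay within the untreated range. A2M, a protease inhibitor, had 0.973 and 2.06 CPM untreated and 65.6 and 4.58 CPM at RA day 10, and FGF10 0.0811 and 0 CPM untreated and 3.79 and 0.268 CPM at RA day 10. Of the 10, 9 were called in 1 of the 4 fits without 1 library and FGF10 in 2. Of the genes called higher at RA day 10, 61.3% were higher in replicate 1 than in replicate 2, and of those called lower 32.3%.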

How the data were processed

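RNA was sequenced from 14 libraries, 2 for each of untreated day 0, RA days 5, 10 and 21 and BMP2 days 5, 10 and 21. The authors deposited whole-number counts per gene and RPKM values (reads scaled by gene length and library total) for 25952 Ensembl genes. STAR, featureCounts, DESeq2 and hg19 are named, without versions or roles, in the submitters' processing notes. Groups and replicate numbers came from the sample titles; the descriptions of RA day 21 carry other replicate numbers. Every per-sample column was matched to a library. Symbols were matched for 25214 genes in a gene name list and for 58 in GENCODE, and 680 had none.

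The deposited counts were tested with edgeR 4.0.16 in R 4.3.3 (quasi-likelihood; TMM scaling; genes kept by filterByExpr at its minimum of 10 counts; Benjamini-Hochberg adjustment, threshold 0.05) in 1 fit of all 14 libraries. The filter left 19142 genes. Totals ran from 45773278 to 75754396 counts. With 2 libraries against 2, an exact two-sided permutation test of 1 value cannot go below 0.333, so no such test was made. For 5814 genes with at least 1000 counts, the length implied by the authors' RPKM and counts was within 1% of the whole gene span for 89.0%. Among counts of 1 to 19, 66.0% to 73.5% were even, which bears on the interval of low counts.

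On simulated data made from these libraries, 50 of 18548 genes were changed per fold. The test of RA day 10 against untreated day 0 recovered 0% of 1.5-fold, 10% of 2-fold, 60% of 4-fold and 62% of 8-fold changes. It made 7 false calls. Far fewer genes were changed there than the 4593 called in the data, which makes the adjusted threshold stricter. These shares therefore do not describe recovery in the data. Genes were named by a rule. First came the 15 largest called changes each way with a mean of at least 5 CPM in the higher group. These also needed no overlap and the call kept without each of the 4 libraries. Up to 5 members of each list each way were added if they kept the call likewise. A set of named markers and the 10 called genes with the widest gap between the RA day 10 libraries completed the rule. That gap was taken only where both libraries had counts. Genes named beyond the rule were chosen after their values were seen. The members and the 29 lists were chosen with earlier results of these data known. The alternatives were other scalings and filters, DESeq2 1.42.0, limma 3.58.1 on log2 RPKM, a replicate block, fewer libraries and each library left out. Some genes that the rule names are not reported here.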

Additional observations from a re-analysis of the deposited data

How the results depend on the processing

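RA day 10 against untreated day 0 had 4593 genes called, 901 when at least a 2-fold change was required, and 1500 to 6368 with 1 library left out. RA day 10 against RA day 5 had 0 calls by edgeR and 0 to 232 with 1 library left out. It had 75 with no filter on low counts, 238 without both BMP2 day 10 libraries, 89 by limma on log2(RPKM + 1), 76 by limma on log2(RPKM over TMM factor + 1) and 727 by DESeq2. RA day 21 against RA day 10 had 1883 calls, and 21 to 3984 with 1 library left out. It had 56 when at least a 2-fold change was required, 4984 from only the 4 libraries compared, 4120 without both BMP2 day 10 libraries and 4030 by DESeq2. The cause of these differences was not tested. Library totals alone and limma on RPKM over the TMM factor were chosen after seeing the data.

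Replicates with the same number did not deviate together: the correlation of their deviations was 0.0039 for RA day 10 with untreated day 0, and ran from -0.34 to 0.15 over all pairs of groups. With the number as a replicate block, the first comparison had 2264 higher and 1972 lower calls, RA day 10 against RA day 5 had 0 calls, and RA day 21 against RA day 10 had 680 higher and 802 lower. Of the named genes, 135 kept their direction and side of the threshold under the block, 8 lost the call and 1 gained it. Many of the named genes were chosen for keeping the call in fits without 1 library, so their stability here is partly fixed by that choice. None of the named genes reversed a call under any alternative run. DESeq2 took the call from 0 of them, and leaving out untreated day 0 replicate 2 took it from 20. Of the named genes without a call, CDKN1A, LIN28A, NEUROD1, NEUROG2, SOX2 and XPC gained it under at least 1 alternative. With 2 libraries a group, a gene without a call may still have changed. Calls included smaller changes, since 1959 of the 2476 genes called higher and 1000 of the 2117 called lower changed at least 2-fold.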
